A study of Mus musculus with 5 samples.

Results

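The Id1, Id2 and Id3 loci were described in peak lists from chromatin immunoprecipitation followed by sequencing (ChIP-seq) of PDGFB-induced mouse gliomas, brain tumours collected 25 days after injection of a virus. All peaks that overlapped a fixed window around each gene on the mouse build mm9 were taken as members. The windows were chr2:152520000-152610000 for Id1, chr12:25720000-25840000 for Id2 and chr4:135650000-135750000 for Id3. They held 94 of the 258727 peaks in the 5 lists, of which 27 lay in the Id1 window, 21 in the Id2 window and 46 in the Id3 window.

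The 5 libraries, 1 per group, were the acetylation mark H3K27ac in Olig2cKO and in control tumours, the methylation mark H3K4me3 in Olig2cKO and in control tumours, and the transcription factor Olig2 in control tumours. Olig2cKO tumours carried floxed Olig2 alleles (Olig2f/f), which control tumours did not, and floxed P53 alleles (P53f/f) were common to all groups. All animals had the mixed background C57Bl/6;129Sv;CD-1. The labels do not say what recombined the floxed alleles, in which cells, or how many tumours went into a library. Olig2 was mapped in control tumours alone, so the loss of Olig2 in Olig2cKO libraries was not checked. Tumours are mixtures of cells, so a mark in fewer cells and a weaker mark per cell cannot be told apart. Since each group is a single library, the spread between replicates is unknown and no difference between genotypes was tested.

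Id proteins are helix-loop-helix proteins without a DNA-binding basic region. They pair with E proteins, the common partners of basic helix-loop-helix factors such as Olig2, and so keep those factors off DNA. Their genes are well-known targets of BMP signalling, and in the developing brain Id proteins favour progenitor and astrocyte fates and hold back oligodendrocyte differentiation. H3K4me3 marks mainly promoters, and H3K27ac marks active promoters and enhancers.

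Promoters from RefSeq were matched by symbol for 2 of the 3 genes, Id2 and Id3. They are shown because H3K4me3 was listed around the Id2 position in control tumours alone and around the Id3 position in both genotypes. Each run is the 250 bases before the gene's start, 5′ to 3′ on the gene's strand, on build GRCm38.p6, whose positions are not those of mm9. Capitals mark the E-box letters CANNTG, the core that basic helix-loop-helix factors recognise.
Id2 promoter (chr12:25096093-25096342, minus strand): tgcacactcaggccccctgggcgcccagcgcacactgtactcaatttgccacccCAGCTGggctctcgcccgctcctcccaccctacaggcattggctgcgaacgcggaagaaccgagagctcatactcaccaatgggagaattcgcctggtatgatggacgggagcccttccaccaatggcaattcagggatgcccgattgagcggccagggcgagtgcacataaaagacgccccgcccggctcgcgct
Id3 promoter (chr4:136143572-136143821, plus strand): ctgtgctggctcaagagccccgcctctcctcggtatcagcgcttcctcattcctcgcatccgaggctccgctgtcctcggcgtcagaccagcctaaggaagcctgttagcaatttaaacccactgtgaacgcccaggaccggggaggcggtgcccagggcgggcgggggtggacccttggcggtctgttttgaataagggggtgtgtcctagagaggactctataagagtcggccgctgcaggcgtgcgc

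The Id2 promoter held 1 E-box, CAGCTG, whose first base lay 196 bases before the start, and the Id3 promoter held 0. CANNTG reads the same on both strands and includes CAGCTG. Of all 32851 promoter windows of this length in the table, 66.2% held CANNTG and 13.0% held CAGCTG. The letters GGCGCC, a GC-rich element known from BMP-responsive Id1 sequences, were found 1 time in Id2 and 0 times in Id3, and in 9.59% of all windows. CCAAT, searched on both strands, was found 3 times in Id2 and 0 times in Id3, and in 33.9% of all windows. Each of the promoters had 62.8% G and C and 18 CpG dinucleotides, against medians of 52.4% and 6 over all windows. These matches describe the letters in these windows and say nothing of binding.

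Peaks carry a score that the authors' peak caller gave them. Scores are not scaled between libraries, so a peak is placed only within its own list, as the share of that list with a lower score. A peak with at least 1 bp in common with a peak of the other genotype is called shared, and the others are called Olig2cKO-only or control-only. Such a name says what was listed and does not show that the mark was missing. Each gene is placed at the position the windows were built on, near 152.562 Mb for Id1, 25.78 Mb for Id2 and 135.70 Mb for Id3. No mm9 gene annotation was used, and the positions of Id2 and Id3 are rounded to 10 kb. In the RefSeq gene order, Id1 lies between Mcts2 and Cox4i2, Id2 between Kidins220 and Rnf144a, and Id3 between Rpl11 and E2f2, and no peak was assigned to any of these genes.

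The H3K4me3 lists of the genotypes differed over the Id2 position. In Olig2cKO tumours no H3K4me3 peak was listed for 83.7 kb around the Id2 position, between peaks that ended at 25720219 and started at 25803873. In control tumours 2 H3K4me3 peaks lay there. The first covered the Id2 position, from 25777006 to 25783695, was 6690 bp wide and scored 348, above 50.2% of its list. The second lay beside it, 156 bp away, from 25783852 to 25786537, was 2686 bp wide and scored 569, above 61.9% of its list. H3K4me3 was thus listed over 7839 bp of the 10 kb centred on Id2 in control tumours and over 0 bp in Olig2cKO tumours.

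Control-only H3K4me3 peaks of such scores were rare in the list. Over the whole control list 8.13% of peaks were control-only. The share was 1.10% in the score decile of the first Id2 peak and 0.672% in that of the second. It was higher among wide peaks, at 11.0% (16 of 145, exact 95% interval 6.44 to 17.3) for widths of 6 to 7 kb, the class of the first peak. Among peaks of that width and score decile it was 2 of 17, and among peaks of the width and score decile of the second it was 3 of 485 (0.619%, 0.128 to 1.80). Each of these counts includes the Id2 peak itself.

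In the control list, the control-only share of peaks wider than 2 kb rose with width. It was 1.01% at 2 to 3 kb, the class of the second Id2 peak, and 39.3% above 8 kb. The 2 control peaks at Id2 span 9532 bp when joined, while the widest peak was 9285 bp in the Olig2cKO list and 9145 bp in the control list. When control peaks up to 1 kb apart were joined, 9 of 19 regions of 9 kb or more (47.4%, 24.4 to 71.1) had no Olig2cKO peak, against 3114 of 37240 narrower regions (8.36%). The joined Id2 region is itself among those 9, and the 9 kb limit was set just below its width. The median score of control H3K4me3 peaks was 1678 at 3 to 4 kb, 759 at 6 to 7 kb and 134 at 8 kb or more. The Olig2cKO list held 257 H3K4me3 peaks of 6 to 7 kb and 55 wider than 8 kb, where the control list held 145 and 28. Of those Olig2cKO peaks, 1 of 257 and 0 of 55 had no control partner. The part of peak width in the missing Olig2cKO peak at Id2 was not tested.

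**Figure D1:**
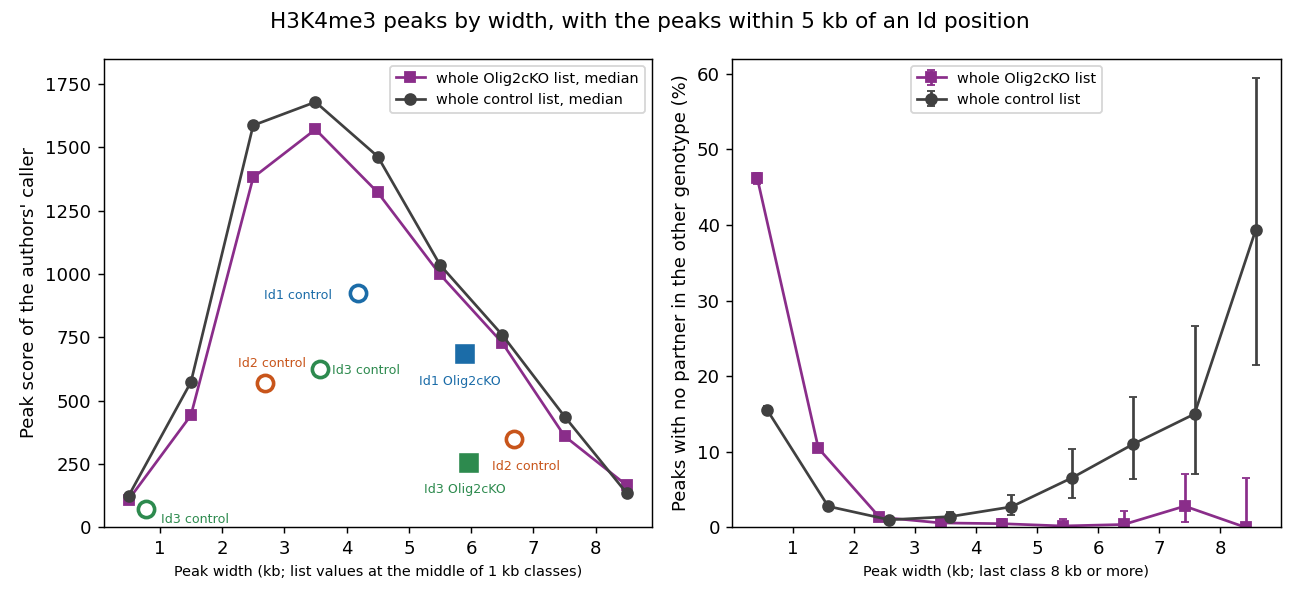
H3K4me3 peaks by width (kb). At left, lines give the median score in 1 kb width classes of each whole list and large symbols the peaks within 5 kb of an Id position (filled squares Olig2cKO, open circles control). At right, the share of peaks without a partner in the other genotype is given with exact 95% intervals. The wide control peak at Id2 sits at 6.69 kb with a score of 348, in a class where 11.0% of control peaks had no partner.

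H3K27ac and Olig2 were also listed beside Id2. An H3K27ac peak lay 3.83 kb from the position in Olig2cKO tumours, from 25783830 to 25785645, and scored 621, above 89.2% of its list. Its control partner reached from 25783855 to 25786679 and scored 97.9, above 27.6% of its list. H3K27ac was thus listed in both genotypes at the site of the second H3K4me3 peak, where H3K4me3 was listed in control tumours alone. The acetylated peak was 1816 bp wide in Olig2cKO and 2825 bp wide in control tumours, a difference of -1009 bp that lay at the right edge. Of 8530 H3K27ac pairs with a control width of 2 to 3 kb, 7.01% narrowed by as much or more, and the median difference was 2 bp. No H3K27ac peak covered the rounded Id2 position itself in either genotype. The peaks began 3.83 kb (Olig2cKO) and 3.85 kb (control) from a position rounded to 10 kb, so acetylation is not placed on or off the gene.

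Olig2 had a peak on each of the control H3K4me3 peaks at Id2. The first, from 25780583 to 25781726, began 0.58 kb from the position and scored 69.1, above 29.5% of the Olig2 list. The second, from 25785328 to 25786402, scored 76.7, above 37.0% of the list. These were weak sites within the Olig2 list. The first overlapped control H3K4me3 and none of the other histone lists, and the second overlapped control H3K4me3 and H3K27ac of both genotypes.

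Farther from Id2, the highest-scoring H3K27ac and Olig2 peaks lay at the edge of the window, and the H3K27ac peak was shared. The H3K27ac peak there ran from 25717660 to 25720597 in Olig2cKO tumours with a score of 1812, above 99.7% of its list. Its control partner ran from 25717865 to 25720406 with a score of 1136, above 96.3%. H3K4me3 was shared at this edge as well, with scores of 694 in Olig2cKO and 695 in control tumours. The Olig2 peak of control tumours at this edge scored 669, above 99.5% of its list. This site lay about 60 kb from Id2, reached beyond the window and is not assigned to a gene.

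Apart from that edge and the shared site beside the gene, the H3K27ac peaks of the Id2 window were each listed in a single genotype. Of the 6 Olig2cKO H3K27ac peaks in the Id2 window, 4 were Olig2cKO-only, where the whole list had 30.9%. The strongest of the 4 ran from 25826719 to 25829306 with a score of 535, above 86.2% of its list, and carried an Olig2cKO-only H3K4me3 peak from 25828114 to 25828951 with a score of 236. The other 3 scored 82.5 to 140, the highest of them from 25743668 to 25745412. Of the 3 control H3K27ac peaks 1 was control-only, where the whole list had 17.9%. It ran from 25794864 to 25796060 with a score of 259, above 63.0% of its list. Of the 4 Olig2cKO-only H3K27ac peaks, that with a score of 96.2 lay at a site from 25809111 to 25810066. This site carried a strong Olig2 peak (score 243, above 89.4% of its list) and H3K4me3 in both genotypes. Of the 4 Olig2cKO H3K4me3 peaks in this window 2 were Olig2cKO-only, where the whole list had 21.4%, and the second of them ran from 25803873 to 25804867 with a score of 160.

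At Id1 the 2 histone marks and Olig2 were listed together, and all of them in each genotype that was mapped. H3K4me3 covered the Id1 position in a single peak, from 152560176 to 152566070 in Olig2cKO tumours (score 685, above 68.4% of its list) and from 152560944 to 152565122 in control tumours (score 923, above 73.0%). The Olig2cKO peak was 5895 bp wide and the control peak 4179 bp, a difference of 1716 bp that was spread over both edges (Olig2cKO minus control, -768 bp at the left edge and 948 bp at the right). Of 625 H3K4me3 pairs with a control width of 4 to 5 kb, 5.92% widened by as much or more, and the median difference was 194 bp. The depth of the libraries is unknown, and its part in peak width was not tested.

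Acetylation at Id1 was narrower than the methylation. The H3K27ac peak ran from 152560961 to 152562142 in Olig2cKO tumours with a score of 620, above 89.2% of its list. In control tumours it ran from 152560847 to 152561966 with a score of 268, above 63.9% of its list. The widths, 1182 and 1120 bp, differed by 62 bp, close to the list median of 70 bp for pairs with a control width of 1 to 2 kb. Olig2 covered the same place, from 152560204 to 152562381, with a score of 132, above 68.4% of its list. A second H3K27ac site 4.71 kb from the position in Olig2cKO tumours was shared and weak in each list, with scores of 68.4 in Olig2cKO and 107 in control tumours.

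The rest of the Id1 window held mostly shared acetylation. Of the 7 Olig2cKO H3K27ac peaks 1 was Olig2cKO-only, with a score of 59.7, where the whole list had 30.9%, and of the 5 control peaks 0 were control-only (up to 52.2% by the exact interval), where the whole control list had 17.9%. The highest Olig2 peak of the window, from 152531222 to 152532703, scored 524, above 98.7% of its list. It lay about 30 kb from Id1 and overlapped H3K27ac of each genotype but no H3K4me3 peak of either. H3K4me3 peaks began just past its end, at 152532734 in Olig2cKO and 152532915 in control tumours. When overlapping members were joined, this site lay in a region present in all 5 lists. Of the 7 Olig2cKO H3K4me3 peaks 3 were Olig2cKO-only, with scores of 66.4, 96.6 and 232 and widths of 357 to 963 bp, and none of the 3 carried H3K27ac or Olig2. The whole list had 21.4% Olig2cKO-only peaks, and its shares in the score deciles of these 7 peaks would give 2.49. The strongest of them ran from 152579647 to 152580609, and the other two lay side by side, from 152549333 to 152549792 and from 152549906 to 152550262. An Olig2 peak from 152583163 to 152583720, with a score of 68.6, was the single Olig2 member that overlapped none of the 4 histone lists, where 17.1% of all Olig2 peaks did so. The fourth Olig2 peak at Id1, from 152591984 to 152592810, scored 93.0 and overlapped weak H3K4me3 peaks of each genotype, with scores of 69.7 in Olig2cKO and 61.8 in control tumours.

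At Id3 H3K4me3 was listed in each genotype, and acetylation reached the rounded gene position more closely in the Olig2cKO list. H3K4me3 covered the Id3 position from 135697812 to 135703774 in Olig2cKO tumours, in a peak 5963 bp wide with a score of 256, above 43.4% of its list. In control tumours the same stretch held 2 peaks, from 135698628 to 135702197 (score 627, above 64.0% of its list) and from 135702971 to 135703753 (score 73.98). H3K4me3 was listed over 5963 bp of the 10 kb centred on Id3 in Olig2cKO and over 4353 bp in control tumours.

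H3K27ac was listed within 5 kb of the rounded Id3 position in Olig2cKO tumours alone. That peak ran from 135694837 to 135699853, ended 0.15 kb from the position, was 5017 bp wide and scored 160, above 48.1% of its list. In control tumours the nearest H3K27ac peaks ended at 135693115 and started at 135727336, with 34.2 kb between them. Of all Olig2cKO H3K27ac peaks with the width class (5 to 6 kb) and score decile of the Olig2cKO peak, 9 of 87 (10.3%, 4.84 to 18.7) were Olig2cKO-only. That count includes the Id3 peak itself. The Olig2cKO-only peak overlapped the strongest Olig2 peak of the Id3 window, from 135695311 to 135697100, with a score of 255, above 90.5% of the Olig2 list. That Olig2 peak overlapped no control histone peak. A weaker Olig2 peak on the other side, from 135702934 to 135704090, scored 59.1 and overlapped H3K4me3 of each genotype.

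A strong shared site lay next to these on the left of Id3. H3K27ac ran from 135688741 to 135693224 in Olig2cKO tumours (score 634, above 89.6% of its list) and from 135689599 to 135693115 in control tumours (score 920, above 93.5%). H3K4me3 scored 1140 there in Olig2cKO and 1241 in control tumours, each above 80% of its list, and a weak Olig2 peak scored 80.2. The gap between the acetylated site and the Olig2cKO-only peak in the Olig2cKO list was under 2 kb, so the Olig2cKO-only peak stood next to chromatin that was acetylated in each genotype.

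Most other peaks of the Id3 window were shared. All 9 Olig2cKO H3K4me3 peaks had a control partner (0 Olig2cKO-only, up to 33.6% by the exact interval), where the whole list had 21.4% Olig2cKO-only. Of the 11 control H3K4me3 peaks 1 was control-only (whole list 8.13%), from 135740793 to 135742190, with the low score of 50.7. Of the 10 Olig2cKO H3K27ac peaks 4 were Olig2cKO-only (whole list 30.9%), with scores of 79.2 to 331. Of the 8 control H3K27ac peaks 2 were control-only (whole list 17.9%), with scores of 143 (from 135665837 to 135667228) and 263. The control-only peak with a score of 263, from 135735554 to 135737956, carried H3K4me3 of each genotype (scores 581 in Olig2cKO and 844 in control tumours). The Olig2cKO-only peak with a score of 331, from 135649962 to 135651670, reached over the window edge and carried no other listed peak. Another Olig2cKO-only peak, from 135716040 to 135716739 with a score of 145, carried H3K4me3 of each genotype and a weak Olig2 peak.

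The other Olig2 peaks among the 5 highest of the Id3 window lay on sites marked in each genotype. A peak from 135672693 to 135673354 scored 202, above 84.6% of its list, and overlapped all 4 histone lists. A peak from 135719091 to 135719823 scored 133 and overlapped H3K4me3 of each genotype with no H3K27ac. A peak from 135660477 to 135661445 scored 85.3 and overlapped all 4 histone lists, as did the weak peak at the strong shared site, from 135690032 to 135692521.

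Over the 3 windows together, shares of genotype-only peaks were set beside those of the whole lists. For H3K27ac the whole lists had 30.9% Olig2cKO-only and 17.9% control-only peaks. For H3K4me3 they had 21.4% and 8.13%. Of 23 Olig2cKO H3K27ac peaks 9 were Olig2cKO-only (39.1%, exact 95% interval 19.7 to 61.5), and of 16 control peaks 3 were control-only (18.8%, 4.05 to 45.6). For H3K4me3 the counts were 5 of 20 Olig2cKO-only (25.0%, 8.66 to 49.1) and 3 of 19 control-only (15.8%, 3.38 to 39.6). Each interval includes the share of its whole list, but the intervals are wide and do not show that the shares are close. Weak peaks more often lack a partner, and the whole-list share in the score decile of each member would give 5.29 Olig2cKO-only and 1.96 control-only H3K27ac peaks, and 4.70 Olig2cKO-only and 2.19 control-only H3K4me3 peaks. For Olig2cKO-only H3K27ac peaks by window, 1 was listed at Id1, 4 at Id2 and 4 at Id3, where that reckoning gave 1.97, 1.45 and 1.87. For control-only H3K27ac peaks 0, 1 and 2 were listed in the same windows, where it gave 0.97, 0.39 and 0.60. For H3K4me3 the listed Olig2cKO-only peaks were 3 at Id1, 2 at Id2 and 0 at Id3, where it gave 2.49, 0.54 and 1.67. The listed control-only H3K4me3 peaks were 0, 2 and 1, where it gave 0.87, 0.15 and 1.18. The listed count was thus above that reckoning in all 4 lists at Id2, in 1 of 4 at Id1 and in 2 of 4 at Id3, with no test of these differences. The exact intervals at Id2 were 22.3 to 95.7% (Olig2cKO-only) and 0.84 to 90.6% (control-only) for H3K27ac. For H3K4me3 they were 6.76 to 93.2% in each direction. Each includes the share of its whole list. With peaks within 1 kb merged, 1 of 3 control H3K4me3 peaks at Id2 was control-only, and the other Id2 counts did not change. With the upper 50% of every list by score, Olig2cKO-only peaks at Id2 were 2 of 3 for H3K27ac and 0 of 1 for H3K4me3. Control-only peaks at Id2 were then 1 of 2 for H3K27ac and 2 of 3 for H3K4me3. The reckoning by score decile was not made for that setting. The intervals take account of counting error alone, and peaks of a window are neighbours rather than independent observations.

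**Figure D2:**
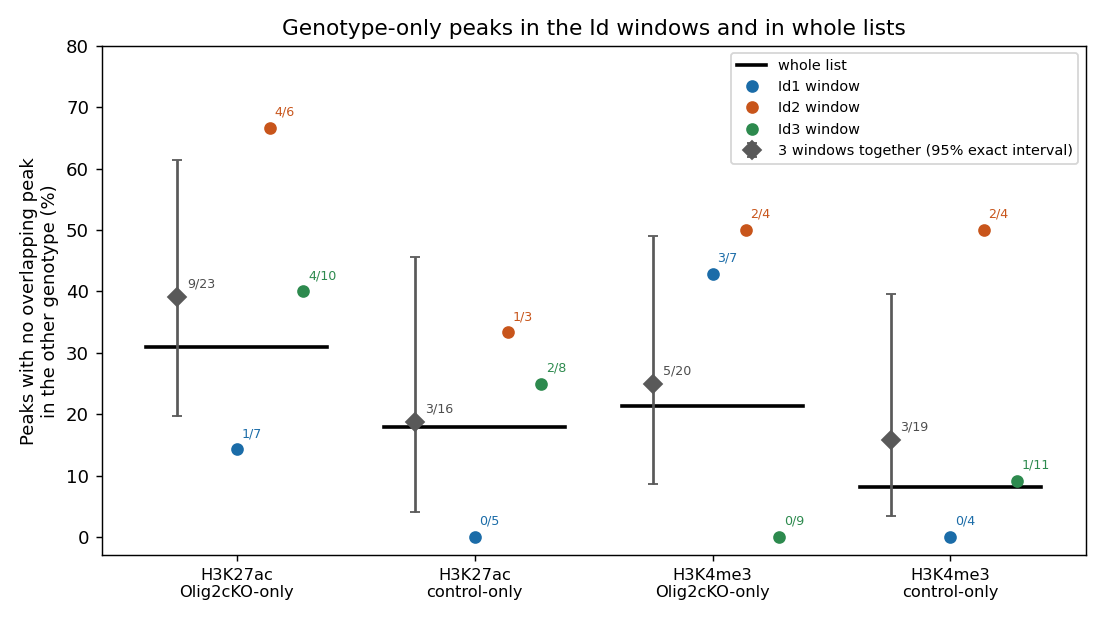
Share of peaks (%) with no overlapping peak in the other genotype, for each mark and direction. Black lines give the whole list, diamonds the 3 windows together with exact 95% intervals, and coloured points each window with its count over its number of peaks. Id2 stands highest in all 4 columns, with 4 of 6, 1 of 3, 2 of 4 and 2 of 4 peaks. The exact interval of each of these Id2 shares, not drawn, includes the whole-list share.

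Shared H3K4me3 peaks were mostly wider in the Olig2cKO list, as over the whole genome. Of 14 H3K4me3 pairs with a single partner on each side, 11 were wider in Olig2cKO tumours (78.6%, 49.2 to 95.3), against 76.7% of 35250 pairs in the whole lists. Olig2cKO minus control, the widths differed by a median of 194 bp, against 150 bp over all pairs. All 4 pairs at Id1 and both at Id2 were wider in Olig2cKO tumours, and 5 of 8 at Id3. Of 12 H3K27ac pairs 7 were wider in Olig2cKO tumours (58.3%, 27.7 to 84.8), against 56.95% of 43120. The 4 H3K27ac pairs at Id1 were all wider in Olig2cKO tumours, by 24 to 299 bp, while at Id3 2 of 6 were.

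**Figure D3:**
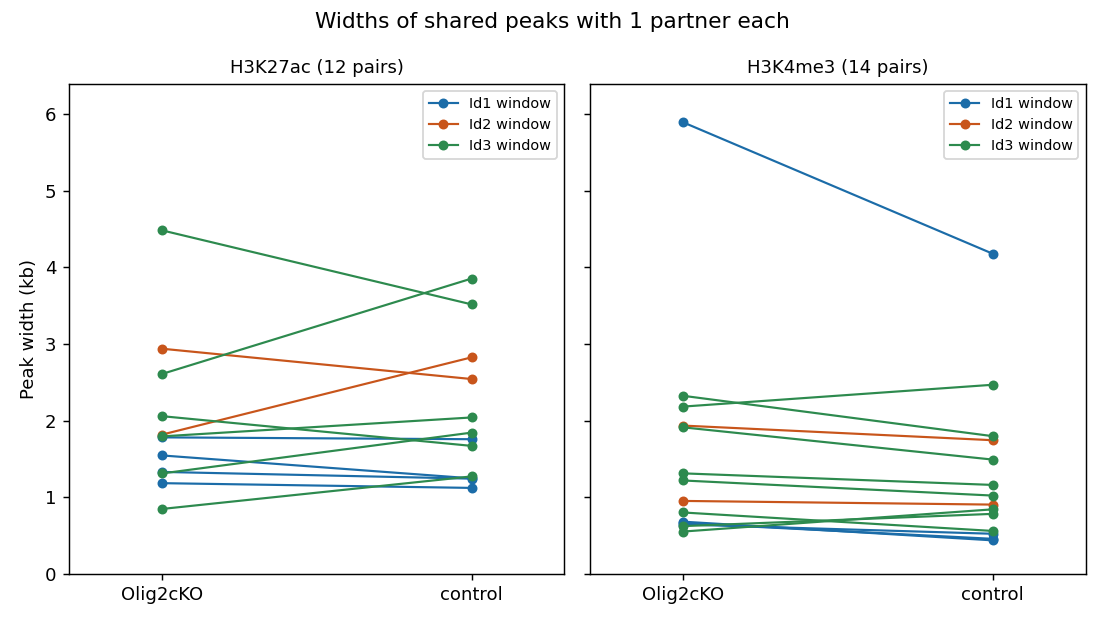
Widths (kb) of shared peaks with a single partner in each genotype, Olig2cKO at left and control at right of each panel, with a line per pair coloured by window. The Id1 H3K4me3 peak stands apart at 5.89 kb in Olig2cKO and 4.18 kb in control tumours.

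Of the 16 Olig2 members 13 overlapped control H3K4me3 (81.3%, 54.4 to 95.95), against 55.6% of all Olig2 peaks, and 8 overlapped control H3K27ac (50.0%, 24.7 to 75.3), against 68.9%. In Olig2cKO tumours 10 of the same sites carried H3K4me3 (62.5%, 35.4 to 84.8), against 58.1% of all Olig2 peaks, and 11 carried H3K27ac (68.8%, 41.3 to 88.98), against 70.2%. Each of these 4 intervals includes the whole-list share, that for control H3K4me3 near its lower bound. With the upper 50% of every list by score, 2 of the 7 Olig2 peaks left lay on H3K4me3 of Olig2cKO tumours and 2 on that of control tumours. All 4 histone lists covered 5 of the 16 sites (31.3%), against 42.5% of all Olig2 peaks. Of the histone peaks themselves, 12 of 23 Olig2cKO and 8 of 16 control H3K27ac peaks overlapped Olig2, against 42.5% of the whole Olig2cKO list and 49.5% of the whole control list. For H3K4me3 the counts were 10 of 20 Olig2cKO and 13 of 19 control peaks, against 50.3% and 55.7% of the whole Olig2cKO and control lists. For overlap between the marks, the whole-list share lies inside the exact interval of each share. H3K27ac peaks overlapped H3K4me3 of the same genotype in 12 of 23 Olig2cKO cases (whole list 49.7%) and 10 of 16 control cases (50.2%). H3K4me3 peaks overlapped H3K27ac in 12 of 20 Olig2cKO cases (66.7%) and 10 of 19 control cases (66.6%).

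The Id3 and Id1 windows held more peaks of every list than the genome average, the Id2 window did so in 4 of 5 lists, and most members were not at the top of their lists. The Id3 window held 10.0 Olig2cKO H3K27ac, 8.0 control H3K27ac, 9.0 Olig2cKO H3K4me3, 11.0 control H3K4me3 and 8.0 Olig2 peaks per 100 kb. The Id1 window held 7.78 Olig2cKO H3K27ac, 5.56 control H3K27ac, 7.78 Olig2cKO H3K4me3, 4.44 control H3K4me3 and 4.44 Olig2 peaks per 100 kb. The median over 19972 genome tiles of 100 kb that held any peak was 3 for Olig2cKO H3K27ac and 2 for each of the other 4 lists, and the means were 3.47, 2.83, 2.45, 2.24 and 1.96 in the same order. The Id2 window was sparser, with 5.0 and 2.5 H3K27ac peaks per 100 kb in Olig2cKO and control tumours, that of control tumours below the genome mean, and 3.33 for each of the other lists. Window counts took any overlap, while tile counts took the middle of each peak. In each list the peak at the Id2 window edge, whose middle lay outside the window, was counted, which raises the Id2 values somewhat. In the highest decile of their list stood 2 of 23 Olig2cKO and 2 of 16 control H3K27ac peaks, 0 of 20 Olig2cKO and 0 of 19 control H3K4me3 peaks, and 3 of 16 Olig2 peaks, 1 in each window.

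**Figure D4:**
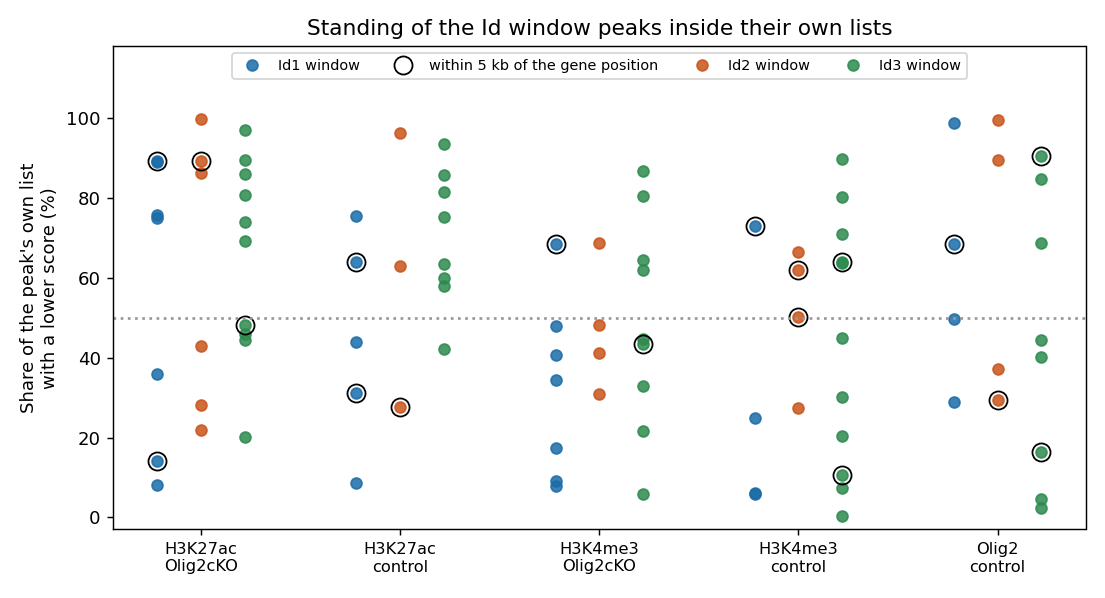
Standing of each member inside its own list, as the share of that list with a lower score (%), by list and window. Rings mark peaks within 5 kb of a gene position. In the H3K27ac Olig2cKO column the ringed peaks nearest Id1 and Id2 both stand at 89.2%, and H3K4me3 members of either genotype stay below 90%.

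When all overlapping members of the 5 lists were joined, the 3 windows held 34 regions, and 21 of them carried a histone mark in each genotype, against 60.2% of 95655 regions joined in the same way over the whole genome. Another 9 carried one in Olig2cKO tumours alone (whole genome 23.5%), 3 in control tumours alone (9.3%) and 1 in neither (7.01%). At Id3 11 of 13 regions were marked in each genotype, at Id1 7 of 12 and at Id2 3 of 9. All 4 histone lists were present in 4 regions at Id3, 2 at Id1 and 1 at Id2. The 2 regions at Id2 marked in control tumours alone were the H3K4me3 peak over the gene position and the H3K27ac peak 14.9 kb from it.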

How the data were processed

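ChIP-seq peak lists of 5 libraries were analysed, 1 per group. CASAVA, Bowtie2 and MACS are named for build mm9, per the submitters' processing notes, while versions, settings and any input library are not given in the sources used here. Every list, as deposited, gives a start, an end and a score per peak, assigned by the authors' peak caller. The deposited scores start at 50 and are not scaled between libraries. Read depth is unknown. A further allele that all groups share is not reported here. The members and gene lists were chosen with earlier results of these data known.

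Members were all peaks overlapping the 3 windows, and starts were counted from 1. Overlaps of at least 1 bp were found with pandas 2.3.3 and numpy 2.4.6 (Python 3.11.15), and the routine was checked on simulated lists with known partners. Intervals are exact (Clopper-Pearson) at 95% from scipy 1.17.1 and cover counting error only. No test between genotypes was made. Peaks named were those within 5 kb of a gene position, up to 5 Olig2 peaks per locus and up to 5 genotype-only peaks per mark and direction by score. Other peaks given with a position were chosen after their values were seen. Pathway genes beyond the members were not analysed here for want of mm9 gene positions. Comparisons within width classes, score deciles and joined regions, over the windows and the whole genome, were chosen after the data were seen. Alternatives were a stricter score, lists of equal length, a stricter or looser overlap, joined peaks, and, added later, peaks wholly inside the windows. Figures were drawn with matplotlib 3.10.9.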

Additional observations from a re-analysis of the deposited data

How the results depend on the processing

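The 10 values over the 3 windows were recomputed under 6 alternatives, and 54 of the 60 values stayed within 1.5 times the reported count or, for shares of wider pairs, inside the reported interval. The other 6 arose with the upper 50% of every list by score, which removes weak peaks. Counts rather than shares were compared, so fewer peaks can lower a count by itself, and a count can stay while its share shifts. With the upper 50% of every list, 4 of 13 H3K27ac peaks were Olig2cKO-only (9 of 23 in the main setting). For H3K4me3, 0 of 6 were Olig2cKO-only (5 of 20), and 3 of 9 were control-only (3 of 19). The 3 control-only peaks were not the same in the 2 settings. The control-only Id3 peak of the main setting, with a score of 50.7, was removed. An Id3 peak with a score of 627 became control-only because its Olig2cKO partner, with a score of 256, was removed. Of 7 Olig2 peaks left, 4 lay on H3K27ac in Olig2cKO tumours and 4 in control tumours, and 2 lay on H3K4me3 in Olig2cKO tumours and 2 in control tumours. The intervals for shares of wider pairs were broad (27.7 to 84.8% for H3K27ac, 49.2 to 95.3% for H3K4me3), so staying inside them shows little. The alternative of peaks wholly inside the windows was chosen after the data were seen. Single windows hold 3 to 11 peaks of a list, and 20 of their 144 values moved by more than 1.5 times. Depth is unknown, so peaks missing from a list were not detected in it, and no absence is shown.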
